A study of Mus musculus with 51 samples.

Results

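Phosphofructokinase 1 (PFK) and the bifunctional enzymes that make and remove its activator (PFKFB) were followed in gastrocnemius muscle of mice. The family was taken as 7 named genes, Pfkm, Pfkl and Pfkp for the 3 PFK subunits and Pfkfb1, Pfkfb2, Pfkfb3 and Pfkfb4 for the 4 bifunctional enzymes, and their counts were read from both count tables of the study. These are 7 of the 48321 gene symbols that each table lists. All 7 genes passed the low-count filter in both batches.

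The study holds 51 libraries in 10 groups, 1 library per animal, and asks how the clock factor BMAL1 and hypoxia-inducible factors (HIF) act on glucose use in muscle of obese mice. Batch 1 of the labels holds, on high-fat diet, 7 Bmal1fx/fx controls and 5 Bmal1KO animals, and on regular chow 4 Bmal1fx/fx controls and 3 Bmal1KO animals. Batch 2 holds only animals on high-fat diet, namely 8 Bmal1fx/fx controls with 4 Bmal1KO, 6 Vhlfx/fx controls with 4 VhlKO, and 6 Bmal1fx/fx;Vhlfx/fx controls with 4 Bmal1KO;VhlKO (here the double knockout). Every control carries the floxed alleles of its own line, and the loss of Bmal1 is described as specific to skeletal muscle. Whole snap-frozen muscle was extracted. The Cre driver, the deleted exons, age, sex and time of harvest are not stated in the labels.

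PFK commits sugar to glycolysis by adding a phosphate to fructose 6-phosphate, and the product of the PFKFB kinase domain, fructose 2,6-bisphosphate, is its strongest known activator. Muscle fibres rely on the M subunit (Pfkm), while the L (Pfkl) and P (Pfkp) subunits are known from liver, platelets, brain and dividing cells. Of the bifunctional enzymes, Pfkfb1 is the form of liver and muscle, Pfkfb2 that of heart, Pfkfb3 an inducible form with a high ratio of kinase to phosphatase activity, and Pfkfb4 a form first described in testis. BMAL1 with CLOCK binds E-boxes, and VHL tags HIF proteins for degradation, and they persist where it is lost.

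For those known binding letters, 5 of the 16 start regions of the family are shown, namely the only ones of Pfkl and Pfkp, both of Pfkfb3 and, of the 4 of Pfkm, the one with an E-box, from RefSeq on build GRCm38.p6, 250 bases before to 50 after each listed start, 5′ to 3′ on the strand of the gene. Capitals mark CACGTG, the palindromic E-box, and ACGTG or GCGTG, the core of the HIF site, on either strand (CACGT and CACGC when read on the other). Pfkm 1 is chr15:98092339-98092638 on the plus strand. Pfkl is chr10:78009758-78010057, Pfkp is chr13:6648722-6649021, Pfkfb3 1 is chr2:11553880-11554179 and Pfkfb3 2 is chr2:11502041-11502340, all on the minus strand.
Pfkm 1: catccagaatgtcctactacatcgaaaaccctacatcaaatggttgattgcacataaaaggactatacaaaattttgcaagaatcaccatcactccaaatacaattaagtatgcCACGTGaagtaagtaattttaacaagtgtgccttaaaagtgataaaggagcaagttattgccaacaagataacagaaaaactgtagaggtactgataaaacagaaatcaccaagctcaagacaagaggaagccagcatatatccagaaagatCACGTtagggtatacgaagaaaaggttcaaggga
Pfkl: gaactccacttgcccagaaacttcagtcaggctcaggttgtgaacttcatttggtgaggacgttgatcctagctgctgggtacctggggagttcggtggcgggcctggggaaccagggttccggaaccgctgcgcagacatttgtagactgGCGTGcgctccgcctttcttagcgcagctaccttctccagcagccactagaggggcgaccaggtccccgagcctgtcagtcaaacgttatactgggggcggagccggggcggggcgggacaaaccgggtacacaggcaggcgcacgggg
Pfkp: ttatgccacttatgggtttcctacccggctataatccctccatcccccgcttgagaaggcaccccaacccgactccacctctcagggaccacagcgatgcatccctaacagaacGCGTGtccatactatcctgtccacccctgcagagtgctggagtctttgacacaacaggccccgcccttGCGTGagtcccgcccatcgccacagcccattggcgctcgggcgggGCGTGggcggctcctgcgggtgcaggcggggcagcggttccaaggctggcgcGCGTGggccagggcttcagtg
Pfkfb3 1: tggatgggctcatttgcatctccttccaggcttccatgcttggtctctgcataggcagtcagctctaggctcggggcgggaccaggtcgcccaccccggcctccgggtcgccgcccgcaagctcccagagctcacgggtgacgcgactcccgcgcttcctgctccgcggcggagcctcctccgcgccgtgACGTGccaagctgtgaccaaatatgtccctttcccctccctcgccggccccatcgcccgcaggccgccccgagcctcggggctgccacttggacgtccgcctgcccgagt
Pfkfb3 2: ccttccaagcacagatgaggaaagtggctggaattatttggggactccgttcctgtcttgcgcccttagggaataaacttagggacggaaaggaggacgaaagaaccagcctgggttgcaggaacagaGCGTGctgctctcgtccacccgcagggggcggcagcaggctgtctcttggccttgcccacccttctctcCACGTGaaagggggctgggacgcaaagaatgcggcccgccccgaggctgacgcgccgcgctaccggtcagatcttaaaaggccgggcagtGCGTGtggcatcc

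The first Pfkm start has the E-box at position -136, and the second Pfkfb3 start has one at -53. The other 3 Pfkm starts, the first Pfkfb3 start, the starts of Pfkl, Pfkp and Pfkfb4 and all 4 of Pfkfb1 hold no CACGTG, and 1 of the 3 of Pfkfb2 does. Of the 4 Pfkfb1 starts 1 holds ACGTG or GCGTG, and of the 4 of Pfkm 3 do. The Pfkl region holds GCGTG once, at -99, and the Pfkp region 4 times, at -136, -68, -23 and 30. The first Pfkfb3 start holds ACGTG at -60, and the second holds GCGTG at -122 and 38 beside its E-box. Pfkfb4 holds GCGTG at -117, the first Pfkm start holds CACGT at 17, and each Pfkfb2 start holds ACGTG or GCGTG on either strand. Each of the 7 genes thus holds these core letters in a start region, whether or not it rose with Vhl loss. Each palindromic E-box also holds ACGTG on both strands, so both searches find it. RefSeq lists 16 start regions for the 7 genes, of which 3 hold CACGTG and 12 hold ACGTG or GCGTG, against 7.15% and 43.8% of 32851 mouse start regions of the same length. These matches are letters in a window and not sites known to be bound, and 3′ tags do not tell which start a transcript came from. The regions are not independent: starts 2 and 3 of Pfkm overlap and share a CACGC, and starts 1 and 2 of Pfkfb2 overlap. For start 4 of Pfkm, starts 1 and 4 of Pfkfb1 and starts 1 and 2 of Pfkfb2, the opening transcribed bases were not found in a transcript of the gene. The counts are thus a description only.

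The libraries were 3′ tag libraries (Lexogen QuantSeq FWD), in which a transcript gives about 1 tag whatever its length, so counts of different genes can be set side by side without division by length. Depth ran from 8722659 to 14706388 counts in batch 1, and batch 2 spanned 6945247 to 14717795. Group means of the mitochondrial share of counts ran from 19.7% in double knockouts to 37.7% in the high-fat controls of batch 1. Muscle markers were present in every group, with 8 genes summing to 84940 to 142800 CPM as group means. In 2 chow libraries of batch 1, control animal 2 and knockout animal 1, the 6 B and T cell markers summed to 42.2 and 54.7 CPM before scaling, against at most 1.09 in the other libraries of that batch, and the log2 changes of Pfkm, Pfkfb1 and Pfkfb3 with diet are given with and without them. Levels are CPM, counts per library total, scaled by TMM factors within a batch (scaled CPM), so a level is compared between batches as a description only. A log2 change is the knockout minus its own control, or high-fat diet minus chow, ± its standard error (SE), and its p was adjusted by Benjamini-Hochberg over all genes of edgeR's quasi-likelihood fit, with 0.05 as the threshold. In these bulk libraries fewer cells of a type and less RNA per cell cannot be told apart. Whether animals with the same conditions shared a litter or cage is not given, so p-values take each animal as independent. Those of edgeR rest on a spread between animals that is estimated over all groups of a fit and draws on other genes.

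Loss of Bmal1 lowered Pfkm on high-fat diet in both batches and on chow, which was fed in batch 1 alone. It lowered Pfkfb3 on high-fat diet in both batches, the call in batch 1 depending on single animals, while the change of Pfkfb3 on chow did not pass. By contrast, loss of Vhl raised Pfkl and Pfkp and lowered Pfkfb1. The double knockout showed the low Pfkm of the first and the high Pfkl and Pfkp of the second, but no change of its Pfkfb3 passed the test. High-fat diet lowered Pfkfb3 in controls and knockouts, and these calls also depended on single animals. Pfkfb2 was scarce throughout, at 5 to 37 counts per library, and Pfkfb4 kept group means of 12.9 to 20.3 scaled CPM.

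**Figure D1:**
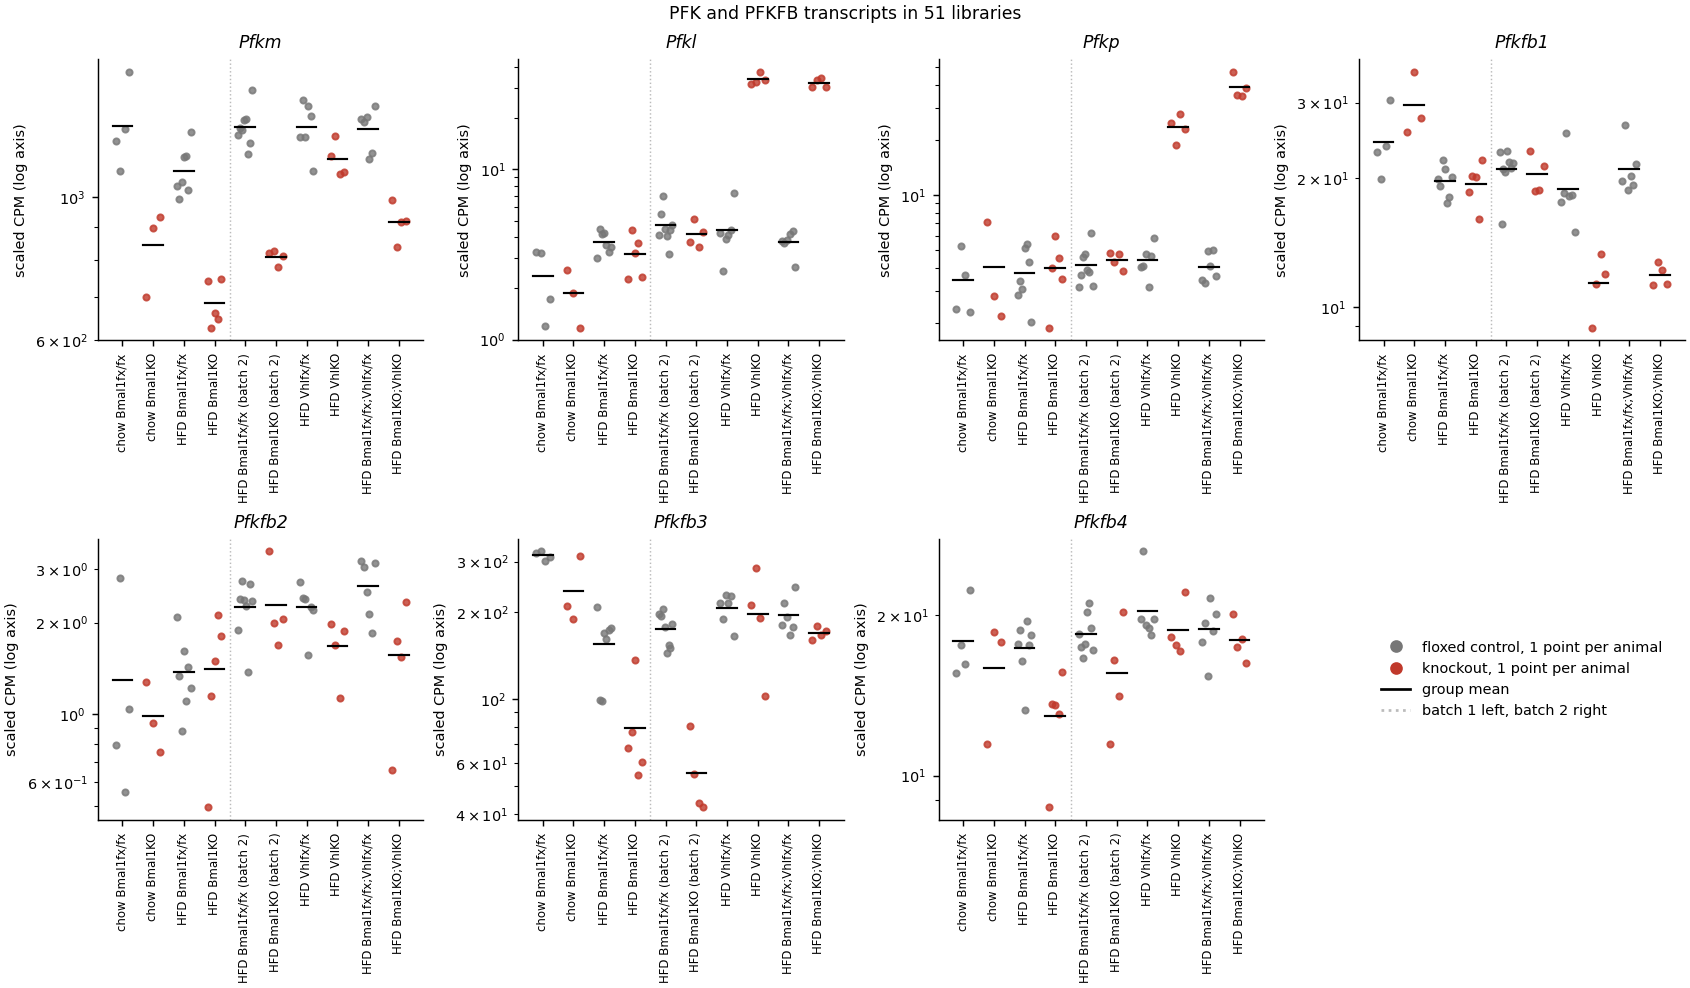
Scaled CPM (log axis) of each of the 7 genes in 51 libraries, 1 point per animal, with grey floxed controls, red knockouts, black group means and a dotted line between the batches. Pfkm is lower in each group that lacks Bmal1, while Pfkl and Pfkp are high in the VhlKO and double knockout groups of batch 2 alone among the 10 groups.

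The muscle subunit Pfkm (chromosome 15, 98092589 to 98132451, plus strand, GRCm38) was the most abundant of the 7 genes in each of the 51 libraries. On high-fat diet in batch 1 it ran from 994 through a median of 1059 to 1265 scaled CPM in the 7 controls, and stood at 740.4, 627, 661, 646 and 748 in Bmal1KO animals 1 to 5. All 5 knockouts lay below all 7 controls. The mean of 684 ± 55.8 (SD, n = 5) against 1100 ± 96.1 (SD, n = 7) was a log2 change of -0.68 ± 0.09 (adjusted p = 1.89e-06). In this comparison 9% of all 12762 genes tested passed, and 2 of the 7 family members passed, both lower.

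On chow, Pfkm stood at 1224, 1099, 1280 and 1569 scaled CPM in control animals 1 to 4 and at 699.5, 897 and 932 in knockout animals 1 to 3. Again no knockout reached the lowest control. The log2 change was -0.62 ± 0.12 (adjusted p = 0.00117), and it was -0.57 without the 2 libraries with B and T cell transcripts (adjusted p = 0.00557). Pfkm was the 1 member of 7 that passed on chow, where 3.81% of all genes did. High-fat diet against chow left Pfkm at -0.23 ± 0.10 in controls (adjusted p = 0.271) and at -0.30 ± 0.11 in knockouts (adjusted p = 0.161). Without the libraries with B and T cell transcripts these were -0.30 (adjusted p = 0.0907) and -0.42 (adjusted p = 0.03).

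Batch 2 repeated the Bmal1 comparison in other animals. Its 8 controls ran from 1168 through 1279 to 1469 scaled CPM of Pfkm, and the 4 knockouts stood at 819.9, 824, 779.5 and 811. The knockouts again lay below every control, and their SD was 20.3 (n = 4) around a mean of 809. The log2 change was -0.67 ± 0.07 (adjusted p = 1.88e-11). Here 13.9% of all genes and 2 members passed, both lower. A single fit of all 24 high-fat Bmal1 libraries, with batch as a term, gave -0.68 ± 0.05 (adjusted p = 2.73e-15), where 22.4% of all genes and 3 members passed, all 3 lower. The difference of the Pfkm effects between batches was 0.01 ± 0.10 (adjusted p = 1, 95% interval -0.18 to 0.20), and 0 members and 0.00796% of all genes (1 gene) passed that test.

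With Vhl lost, Pfkm changed little. The 6 Vhlfx/fx controls ran from 1100 through 1291 to 1418 scaled CPM, and the 4 VhlKO animals stood at 1159, 1244, 1087 and 1096. The groups overlapped, with 2 knockouts below all controls. The log2 change of -0.17 ± 0.07 passed narrowly (adjusted p = 0.0443). Leaving out 1 library ended that call in 7 of 10 cases (-0.21 to -0.13, adjusted p 0.00889 to 0.149): control 2, 3, 4 or 5, or knockout 1, 3 or 4. Without scaling beyond library totals, the value turned to 0.19 ± 0.07 (adjusted p = 0.0208), while the median of all genes moved from 0.01 to 0.35, so that Pfkm was still below the median gene.

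In the double line, Pfkm ran from 1147 through 1319 to 1386 scaled CPM in 6 controls and stood at 989, 839, 917 and 919.8 in the 4 knockouts, all below every control. Its log2 change was -0.48 ± 0.07 (adjusted p = 1e-07), and -0.12 ± 0.07 without scaling (adjusted p = 0.123), where the median of all genes was 0.37. The Vhl effect on Pfkm was above the Bmal1 effect by 0.50 ± 0.09 (adjusted p = 3.36e-05). The double effect was below the Vhl effect by a log2 difference of -0.32 ± 0.09 (adjusted p = 0.0267), a call lost without double control 6 or double knockout 2 (adjusted p up to 0.0669). The double effect and the Bmal1 effect differed by 0.19 ± 0.09, which did not pass (adjusted p = 0.165, 95% interval 0.01 to 0.37).

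Ordered by group mean, Pfkm was highest in chow controls (1293 ± 199), followed by the 3 control groups of batch 2 (1288, 1288 and 1280), VhlKO (1147), batch 1 controls on high-fat diet (1100), the double knockout (916), chow Bmal1KO (843), batch 2 Bmal1KO (809) and batch 1 Bmal1KO on high-fat diet (684). Only 3 steps of that order were wider than the larger SD of the neighbours, namely those between the double-line controls and VhlKO, between batch 1 controls on high-fat diet and the double knockout, and between batch 2 Bmal1KO and batch 1 Bmal1KO.

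Pfkl, the liver subunit (chromosome 10, 77986947 to 78010083, minus strand), was scarce wherever Vhl was intact, at group means of 1.87 to 4.68 scaled CPM. In the Vhl line the controls ran from 2.52 through 4.17 to 7.29, and the knockouts stood at 31.7, 32.4, 37.3 and 33.2. The lowest knockout was over the highest control. Pfkl rose 7.48-fold (log2 2.90 ± 0.15, adjusted p = 3e-20), the 61st highest change of 13093 genes. In the double line it went from 2.67, 3.81 and 4.34 (lowest, median and highest of 6 controls) to 30.2, 33.2, 34.2 and 30.2 in the 4 knockouts, an 8.52-fold rise (log2 3.09 ± 0.15, adjusted p = 1.03e-21).

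The platelet subunit Pfkp (chromosome 13, 6579768 to 6648777, minus strand) rose as well, from 3.13, 4.36 and 5.85 in Vhl controls to 24.7, 18.7, 27.7 and 23.0 in VhlKO animals. That is 5.25-fold (log2 2.39 ± 0.15, adjusted p = 5.04e-18). In the double line Pfkp went from 3.31, 3.85 and 5.00 in controls to 47.0, 35.0, 34.8 and 38.3 in knockouts, 9.48-fold (log2 3.24 ± 0.14, adjusted p = 4.39e-24). All 4 knockouts of each line were over all 6 of their controls in both genes.

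For Pfkp the double effect was larger than the Vhl effect by 0.85 ± 0.21 on the log2 scale (adjusted p = 0.00618). For Pfkl the same difference was 0.19 ± 0.22 and did not pass (adjusted p = 0.671, 95% interval -0.25 to 0.63). In the test of double against Vhl effects, 8.56% of all genes passed and 2 members did, Pfkp higher and Pfkm lower. Bmal1 loss alone left Pfkl at -0.16 ± 0.17 (adjusted p = 0.639) and Pfkp at 0.10 ± 0.16 (adjusted p = 0.783) in batch 2. Against that Bmal1 effect, the Vhl effect was higher by 3.07 for Pfkl (adjusted p = 2.18e-14) and by 2.29 for Pfkp (adjusted p = 2.68e-11), and the double effect by 3.25 (adjusted p = 4.12e-15) and 3.14 (adjusted p = 9.21e-16). In batch 1, where Vhl was intact in every animal, the highest Pfkp levels of the chow groups were 5.29 in control animal 2 and 7.16 in knockout animal 1, the libraries with B and T cell transcripts. The rises of Pfkl and Pfkp held under each alternative setting and without any single library.

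Among the 7 members 2 rose and 2 fell with Vhl loss, where 37.2% of all genes passed, and 2 rose and 3 fell in the double knockout, where 35.4% passed. Both shares are high, so that a passing test alone sets no member apart from the mass of genes. Markers of other cells moved in the same libraries: all 8 endothelial markers rose in both lines, with summed levels of 144.5 to 163.0 scaled CPM in Vhl controls against 292.9 to 373.5 in VhlKO, and 145.6 to 161.1 against 241.8 to 329.5 in the double line. Of 6 platelet and red cell markers 3 rose with Vhl loss (sums 713.6 to 1238 against 4546 to 5554) and 5 in the double knockout (684.2 to 964.1 against 2454 to 4128). Of 8 skeletal muscle markers 7 fell and 1 rose with Vhl loss and 6 fell and 1 rose in the double knockout. Of 9 fast fibre markers 7 fell in both lines (list medians -0.52 and -0.47), and of 9 slow fibre markers 5 rose and 1 fell with Vhl loss and 1 fell in the double knockout. Satellite cell markers summed to 12.17 to 14.3 in double-line controls against 18.76 to 26.38 in double knockouts, and overlapped in the Vhl line. Sums of macrophage and neutrophil, adipocyte, fibroblast and Schwann cell markers overlapped between knockouts and controls in both lines. The adipocyte sums of the double line did so narrowly, at 396.7 to 725.7 in controls against 710.8 to 1020 in knockouts. With Bmal1 loss in batch 2 muscle marker sums were 131600 to 144900 in controls against 123400 to 127100 in knockouts. Satellite cell sums there were 11.55 to 15.96 against 18.73 to 19.32. In batch 1 the ranges of both sums overlapped on either diet. None of these markers was at 0 in the groups named. The part of these cells and fibres in the levels of Pfkl, Pfkp, Pfkm and Pfkfb1 was not tested. Pitrm1, which lies on the opposite strand over the 3′ end of Pfkp, did not rise (log2 -0.42 ± 0.11, adjusted p = 0.00296 with Vhl loss, and -0.12 ± 0.11, adjusted p = 0.424 in the double knockout).

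**Figure D2:**
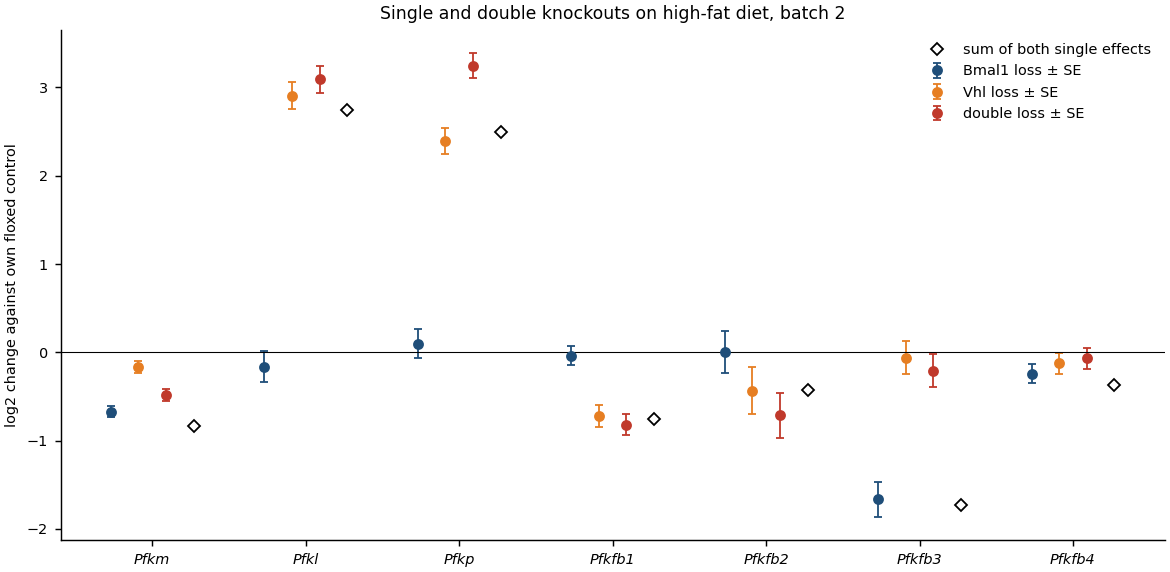
Log2 change against the own floxed control (points ± SE) of each gene in the 3 knockouts of batch 2, with open diamonds for the sum of both single effects. Pfkl and Pfkp lie at 2.39 to 3.24 in both groups without Vhl, and Pfkfb3 in the double knockout lies at -0.21, far above its diamond.

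The bifunctional enzymes were together at 93.9 scaled CPM in batch 2 Bmal1KO and up to 358 in chow controls (group means of the sum of 4 genes), and Pfkfb3 was the most abundant of the 4 in each of the 51 libraries. Pfkfb3 (chromosome 2, 11471433 to 11554077, minus strand) was at 144.7, 179 and 206 (lowest, median and highest of 8) in batch 2 Bmal1 controls and at 81.0, 55.1, 43.8 and 42.2 in the 4 knockouts. No knockout reached a control. The log2 change of -1.67 ± 0.20 (adjusted p = 2.91e-07) is a 3.17-fold fall, and it stayed between -1.90 and -1.56 with each library left out.

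In batch 1 on high-fat diet Pfkfb3 ran from 98.5 through 169.8 to 209 in controls and stood at 67.8, 77.0, 137, 54.8 and 60.5 in knockouts. Of 5 knockouts 4 lay below all controls, and animal 3 lay among them. The change was -0.97 ± 0.24 (adjusted p = 0.0179). It was lost without knockout animal 1, 4 or 5 (adjusted p up to 0.0544), and with only these 2 groups in the fit (-0.96 ± 0.28, adjusted p = 0.0562), whereas without animal 3 it was -1.26 (adjusted p = 0.000652). On chow the controls stood at 322, 325, 301 and 311 and the knockouts at 211, 189.8 and 312, 1 of them within the control range. That change of -0.41 ± 0.31 did not pass (adjusted p = 0.659, 95% interval -1.01 to 0.20).

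The Bmal1 effects on Pfkfb3 were not shown to differ between diets (difference -0.56 ± 0.39, adjusted p = 1) or between batches (-0.70 ± 0.33, adjusted p = 0.876). Over both batches the change was -1.29 ± 0.19 (adjusted p = 1.46e-05). In the diet by genotype test 0% of all genes passed in edgeR (0 genes, 575 at unadjusted p under 0.05, and 3 in DESeq2), and 0 members.

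High-fat diet lowered Pfkfb3 in batch 1. In controls it went from the 301 to 325 range on chow to 98.5 to 209 on high-fat diet, without overlap of 4 against 7 animals, a log2 change of -1.02 ± 0.25 (adjusted p = 0.0412). This was the 1 member of 7 past the threshold, where 2.37% of all genes passed. The call hangs on the threshold: it was lost when any of 10 of the 11 libraries was left out, all but high-fat control 1 (-1.10 to -0.93, adjusted p 0.0324 to 0.105), and without the chow library with B and T cell transcripts and its knockout counterpart (-1.003 ± 0.29, adjusted p = 0.114). In Bmal1 knockouts the fall was -1.58 ± 0.29 (adjusted p = 0.0064), again without overlap, lost without chow knockout 3 (-1.33, adjusted p = 0.061), with only these groups in the fit (-1.58 ± 0.34, adjusted p = 0.0681), and kept without the libraries with B and T cell transcripts (-1.66, adjusted p = 0.0176). There 3.28% of all genes and 2 members passed, Pfkfb3 and Pfkfb1, both lower.

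With Vhl lost, Pfkfb3 stood at 213, 285.5, 191.7 and 102 in knockouts against 165.5, 215 and 229.9 in controls, so that 1 knockout lay above and 1 below all controls. Its log2 change was -0.06 ± 0.19 (adjusted p = 0.829, 95% interval -0.43 to 0.31). In the double line the controls ran from 166.5 through 186.5 to 244 and the knockouts stood at 160.2, 179.7, 167.5 and 173, a change of -0.21 ± 0.19 (adjusted p = 0.423, 95% interval -0.58 to 0.16). The fall seen with Bmal1 loss was thus not seen when Vhl was lost as well, and the test of that difference passed (double minus Bmal1 effect 1.46 ± 0.27, adjusted p = 0.000256). Vhl and Bmal1 effects differed by 1.60 ± 0.27 (adjusted p = 4.39e-05). The double effect was above the sum of both single effects by 1.52 ± 0.33 (adjusted p = 0.00747), and stayed so with each of 32 libraries left out (1.29 to 1.75). This was the 1 member past the threshold in that test, where 3.78% of all genes passed. Pfkm missed it (0.36 ± 0.11, adjusted p = 0.0655), and passed in 4 of the 32 (without Bmal1 control 13, Vhl control 6, VhlKO 2 or double knockout 2, adjusted p down to 0.0233). Pfkp missed it as well (0.75 ± 0.27, adjusted p = 0.106).

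In the difference of Vhl and Bmal1 effects 25.3% of all genes passed and 5 members did, with Pfkm, Pfkl, Pfkp and Pfkfb3 higher and Pfkfb1 lower. In the difference of double and Bmal1 effects 16.7% of all genes and 4 members passed, Pfkl, Pfkp and Pfkfb3 higher and Pfkfb1 lower. The 3 effects of batch 2 each have controls of their own, but the 2 differences share the Bmal1 animals.

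Pfkfb1 (chromosome X, 150588229 to 150643878, plus strand) fell with Vhl loss. It ran from 14.9 through 18.2 to 25.4 scaled CPM in Vhl controls and stood at 8.94, 11.3, 13.3 and 11.9 in VhlKO, and ran from 18.8 through 19.99 to 26.7 in double-line controls and stood at 11.3, 12.7, 12.2 and 11.3 in double knockouts. In neither line did a knockout reach a control. The changes were -0.72 ± 0.12 (adjusted p = 7.54e-06) and -0.82 ± 0.12 (adjusted p = 2.94e-07), and they did not differ beyond their error (-0.10 ± 0.17, adjusted p = 0.781, 95% interval -0.44 to 0.24).

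Bmal1 loss left Pfkfb1 at -0.02 ± 0.11 in batch 1 and -0.04 ± 0.11 in batch 2 on high-fat diet (adjusted p = 0.962 and 0.879), and at 0.29 ± 0.14 on chow (adjusted p = 0.383). The Vhl effect was below that of Bmal1 by a log2 difference of -0.68 ± 0.16 (adjusted p = 0.00151), or -0.41 ± 0.17 without scaling (adjusted p = 0.0586). In Bmal1 knockouts high-fat diet lowered Pfkfb1 from 25.7, 35.4 and 27.6 to a range of 16.1 to 21.98, without overlap (-0.61 ± 0.14, adjusted p = 0.00825). That call was lost without chow knockout 2 (-0.47, adjusted p = 0.0956). In controls the change was -0.30 ± 0.12 (adjusted p = 0.236). Without the libraries with B and T cell transcripts the changes were -0.70 in knockouts (adjusted p = 0.00482) and -0.39 in controls (adjusted p = 0.118).

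Pfkfb4 (chromosome 9, 108991778 to 109032228, plus strand) was called in no single batch. On high-fat diet in batch 1 it ran from 13.2 through 17.6 to 19.5 in controls and stood at 8.73, 13.6, 13.6, 13.0 and 15.6 in Bmal1 knockouts. The ranges overlapped, and the change of -0.42 ± 0.14 narrowly missed the threshold (adjusted p = 0.0523). It passed without control 4 or knockout 5 (adjusted p down to 0.0212), and in 4 of 9 alternatives: the average log2 CPM filter, no low-count filter, limma and only the groups compared (adjusted p down to 0.0405). In batch 2 the change was -0.24 ± 0.11 (adjusted p = 0.154) and passed without knockout 9 (-0.39, adjusted p = 0.0182). Over both batches it passed (-0.33 ± 0.09, adjusted p = 0.0035), but not without scaling (-0.21, adjusted p = 0.0878) or under the replicate block. With Vhl loss it was -0.12 ± 0.12 (adjusted p = 0.422).

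Pfkfb2 (chromosome 1, 130689182 to 130729253, minus strand) had group means of 0.989 to 2.64 scaled CPM. In the double line the controls ran from 1.85 through 2.78 to 3.18 and the knockouts stood at 0.657, 1.75, 1.54 and 2.34, which rest on 6 to 30 counts. The change of -0.71 ± 0.25 passed (adjusted p = 0.0244) and was lost without control 1, knockout 1 or knockout 3 (-0.96 to -0.49 over the libraries left out, adjusted p up to 0.14). It was also lost without scaling (-0.37, adjusted p = 0.212), without the low-count filter and with only the groups compared. Gm29427, which shares the strand and covers the 3′ end of Pfkfb2, had at most 0.476 CPM in a library. How reads of the pair were assigned was not tested. At this depth smaller changes of Pfkfb2 were not detectable.

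**Figure D3:**
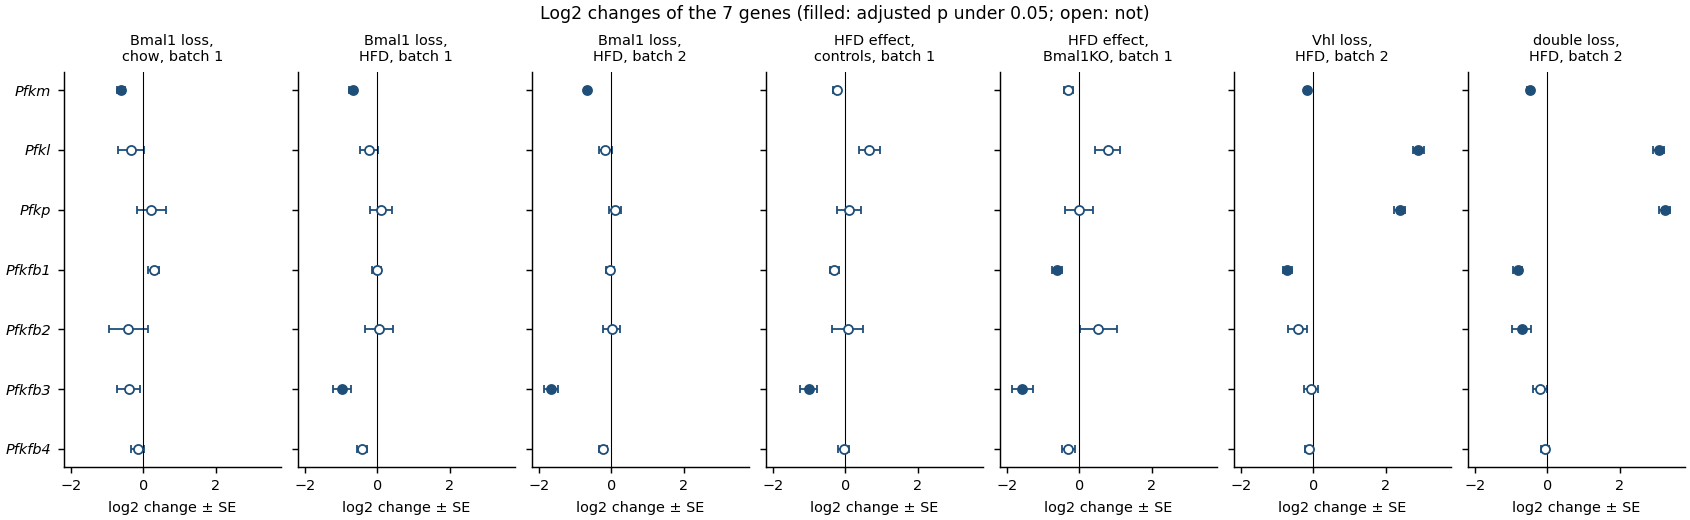
Log2 change ± SE of the 7 genes in the 5 knockout comparisons and the 2 diet comparisons, filled where the adjusted p was under 0.05. Pfkm is filled and left of 0 in each knockout comparison (at 0.19 for Vhl loss without scaling, not plotted), Pfkfb3 in 2 of the 3 Bmal1 comparisons and both diet comparisons, and Pfkl and Pfkp are filled and right of 0 with Vhl loss and in the double knockout.

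The share of each isozyme in the summed counts of the 7 genes was compared by exact two-sided permutation tests over animals, adjusted over 49 tests (7 genes in 7 comparisons), of which 17 passed. The smallest p that the exact permutation test allows is 0.0571 for Bmal1 loss on chow (3 against 4 animals) and 0.0357 for diet in knockouts (5 against 3), and 0.00253 to 0.00952 elsewhere. These values are before adjustment. With the other tests as they stood, no share could pass after it on chow or with diet in knockouts. Pfkm made up 77.8% of the family in chow controls, 84.6% in the high-fat controls of batch 1 and 83.3 to 85.1% in the 3 control groups of batch 2.

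Diet shifted the balance of PFK and PFKFB transcripts in controls: Pfkfb3 went from 19.2% on chow to 11.9% on high-fat diet (adjusted p = 0.0371, exact permutation test) while Pfkm went from 77.8 to 84.6% (adjusted p = 0.0371, exact permutation test). In Bmal1 knockouts the same shares went from 20.9 to 9.83% and from 74.4 to 85.1% (adjusted p = 0.0795 for each, exact permutation test). Before adjustment p was 0.0357 for each, the smallest that this exact test allows there, so these shares could not pass. Leaving out any of 9 of the 11 control libraries, all but high-fat control 1 and chow control 4, ended both calls in controls (adjusted p up to 0.0795). Pfkl went from 0.147 to 0.291% with high-fat diet in controls (adjusted p = 0.0333, exact permutation test), lost without chow control 1, 2 or 3. With Bmal1 loss on high-fat diet the levels of Pfkm and Pfkfb3 fell. In batch 2 the share of Pfkfb3 then went from 11.6 to 6.06% and that of Pfkm from 85.1 to 88.8% (adjusted p = 0.0333 for each, exact permutation test). In batch 1 on high-fat diet those shares were 11.9 against 9.83% (adjusted p = 0.395) and 84.6 against 85.1% (adjusted p = 0.882, exact permutation tests). Pfkfb1, whose own level did not change with Bmal1 loss, went from 1.52 to 2.41% (batch 1, high-fat diet) and from 1.39 to 2.25% (batch 2) (adjusted p = 0.0333 for each, exact permutation test). With Vhl loss Pfkl went from 0.294 to 2.37% of the family and Pfkp from 0.291 to 1.66%, and in the double line they went from 0.249 to 2.70% and from 0.269 to 3.25% (adjusted p = 0.0333 for each, exact permutation test). Pfkm went from 83.9 to 77.1% in the double line (adjusted p = 0.0333) and from 83.3 to 80.2% with Vhl loss (adjusted p = 0.15, exact permutation tests). Leaving out any 1 of the 4 knockouts ended the calls of Vhl loss and of the double line (adjusted p up to 0.0686), since fewer animals raise the smallest p that can be reached. In batch 2 Bmal1 loss, leaving out knockout 7, 8 or 9 ended the call for Pfkm (adjusted p up to 0.0742). A share can rise because other members fall, so shares are no measure of a gene's own level.

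Within the 3 PFK genes alone, Pfkm made up 99.3% of counts in Vhl controls and 95.2% in VhlKO, and 99.4 against 92.8% in the double line (adjusted p = 0.025 for each of these, exact permutation test over 21 tests). Pfkl took 2.81% and Pfkp 1.97% in VhlKO, and 3.256% and 3.92% in double knockouts, against 0.295 to 0.351% in their controls. Thus Pfkl was ahead of Pfkp in VhlKO and behind it in the double knockout, as group means. In batch 2 Bmal1KO, Pfkm made up 98.95% against 99.3% (adjusted p = 0.025, exact permutation test), so its share fell within the PFK genes and rose within the family.

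Within the 4 PFKFB genes, Pfkfb3 went from 80.6 to 58.2% with Bmal1 loss in batch 2 and Pfkfb1 from 9.77 to 22.1% (adjusted p = 0.0339 for each, exact permutation test over 28 tests). In batch 1 on high-fat diet Pfkfb3 went from 79.3 to 68.7% (adjusted p = 0.0453) and with high-fat diet in controls from 87.9 to 79.3% (adjusted p = 0.0339, exact permutation tests). With Vhl loss it was at 83.3 and 84.6% (adjusted p = 0.741, exact permutation test).

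**Figure D4:**
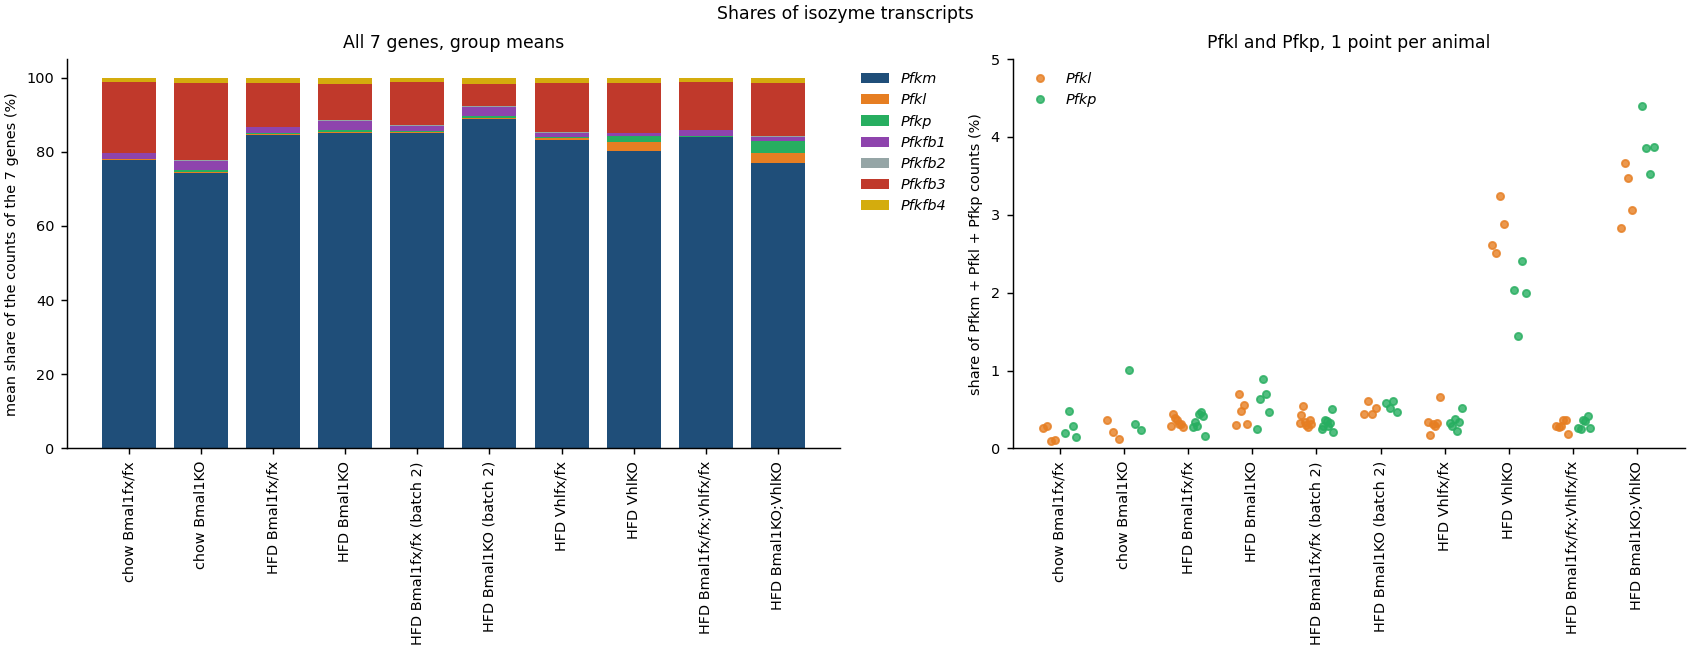
Left, mean share (%) of each gene in the counts of the 7 genes, as bars stacked to 100% for each of the 10 groups. Right, share (%) of Pfkl and Pfkp in the counts of the 3 PFK genes, 1 point per animal, at most 1.009% in any animal with Vhl intact and 1.442 to 4.403% in VhlKO and double knockouts.

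The neighbours of the PFK step were read from a list of 7 genes, of which 4 were tested in batch 1 and 5 in batch 2. Tigar, a phosphatase that removes the activator fructose 2,6-bisphosphate, and Fbp2, the muscle fructose bisphosphatase that reverses the PFK step, fell together with Pfkm upon Bmal1 loss. On high-fat diet in batch 1 Tigar was at 70.7 ± 11.7 against 127 ± 10.6 scaled CPM (SD, log2 -0.85 ± 0.11, adjusted p = 1.8e-06). Fbp2 was at 13.7 ± 1.33 against 23.5 ± 6.46 (-0.79 ± 0.17, adjusted p = 0.00218). These were the 2 genes of the list that passed, where 9% of all genes did. The list median was -0.46 where that of all genes was 0.00. On chow both fell as well, Tigar by a log2 change of -0.70 ± 0.15 (adjusted p = 0.00268) and Fbp2 of -1.15 ± 0.22 (adjusted p = 0.00184). In batch 2 Tigar changed by -0.68 ± 0.08 (adjusted p = 8.92e-10) and Fbp2 by -0.78 ± 0.15 (adjusted p = 0.00016), and no other gene of the list passed. Of all genes 3.81% passed on chow and 13.9% in batch 2.

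With Vhl loss Tigar went from 99.6 ± 6.51 to 49.7 ± 4.81 scaled CPM (-1.002 ± 0.08, adjusted p = 4.03e-14), and in the double line from 115 ± 7.79 to 40.5 ± 5.62 (-1.5 ± 0.08, adjusted p = 2.99e-20). The double effect was below the Vhl effect by a log2 difference of -0.50 ± 0.11 (adjusted p = 0.00233). Gpi1, which makes fructose 6-phosphate from glucose 6-phosphate, rose in both lines (0.55 ± 0.06 and 0.47 ± 0.06), and Aldoa, the muscle aldolase that takes up the product of PFK, fell (-0.51 ± 0.06 and -0.31 ± 0.06). Aldoc rose from near 0 (0.113 to 1.47 scaled CPM with Vhl loss, 0.301 to 1.38 in the double line). In all 2 genes rose and 2 fell of 5 with Vhl loss, and 2 rose and 3 fell in the double knockout. Of all genes 37.2% and 35.4% passed in these comparisons.

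Of 17 other glycolytic genes 13 were tested. With Bmal1 loss 1 rose and 3 fell on high-fat diet in each batch, where 9% and 13.9% of all genes were called: Hk2, the insulin-responsive hexokinase (-1.18 ± 0.22, adjusted p = 0.00172 in batch 1 and -1.07 ± 0.17, adjusted p = 3.24e-05 in batch 2), Ldha, a lactate dehydrogenase subunit (-0.44 ± 0.09 and -0.52 ± 0.07), and Eno3, the muscle enolase (-0.38 ± 0.10 and -0.32 ± 0.07), fell, and Pkm, pyruvate kinase, rose (0.36 ± 0.09 and 0.31 ± 0.06). On chow Ldha passed (-0.42 ± 0.12, adjusted p = 0.0346), and 0 of the 13 passed with diet in controls or in knockouts. With Vhl loss 6 rose and 5 fell, among them Pkm (0.83 ± 0.06), Tpi1, triosephosphate isomerase (0.70 ± 0.07), and Ldha (0.55 ± 0.07) higher and Eno3 (-0.95 ± 0.07) lower. In the double knockout 7 rose and 5 fell, with Pkm at 1.09 ± 0.06, Ldha at 0.73 ± 0.07, Tpi1 at 0.74 ± 0.07 and Eno3 at -0.96 ± 0.07. All genes were called at 37.2% and 35.4% in these comparisons. The list medians of 0.55 and 0.55 stood against 0.01 and 0.01 for all genes.

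**Figure D5:**
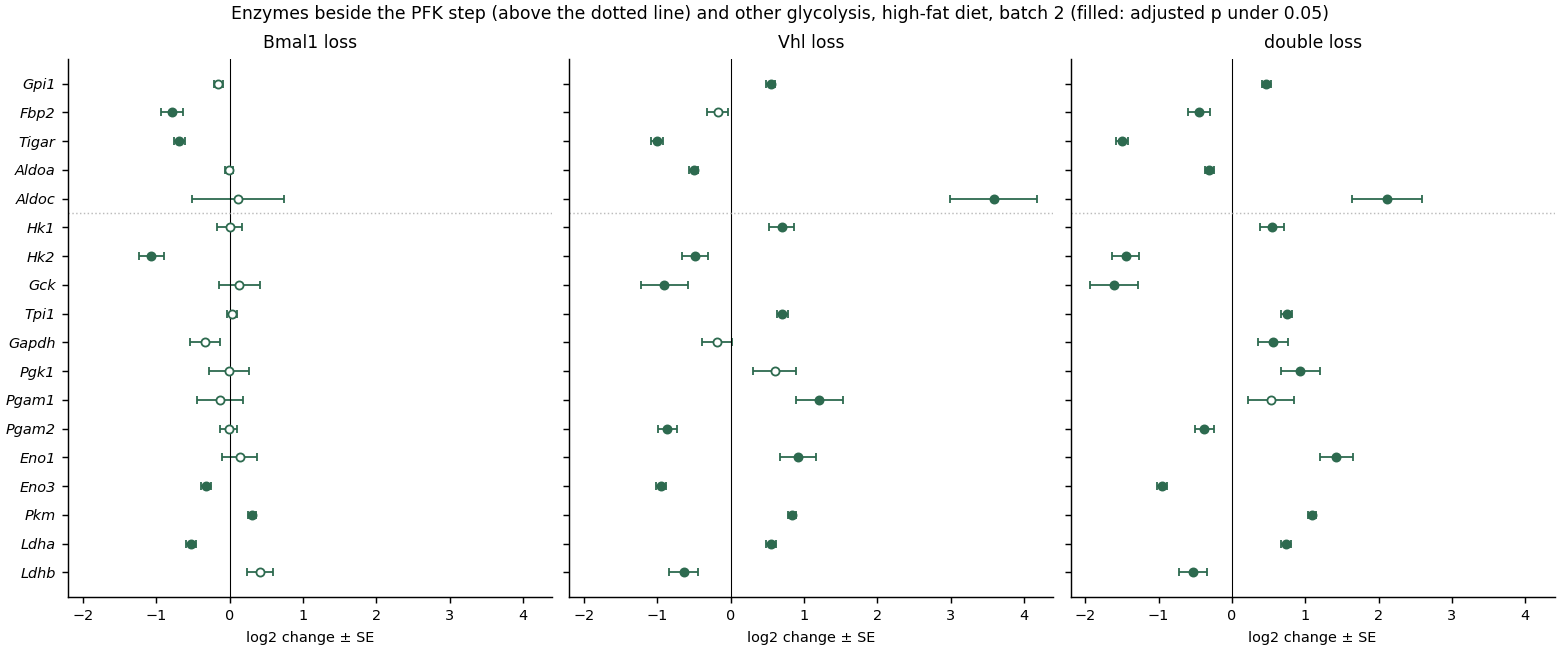
Log2 change ± SE of enzymes beside the PFK step (above the dotted line) and of other glycolysis in the 3 knockouts of batch 2, filled where the adjusted p was under 0.05. Tigar lies left of 0 in all 3 panels, whereas Ldha lies left with Bmal1 loss (-0.52) and right with Vhl loss (0.55) and in the double knockout (0.73).

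Of 14 genes whose proteins act on PFK or PFKFB proteins, all 14 were tested. With Bmal1 loss on high-fat diet 1 rose and 4 fell in batch 1, and 2 rose and 4 fell in batch 2, against 9% and 13.9% of all genes called. The AMPK subunit genes Prkab2 (-0.73 ± 0.10 and -0.58 ± 0.07) and Prkag3 (-0.61 ± 0.16 and -0.67 ± 0.11) were among those that fell in both. In other tissues AMPK, as a complex of its subunits, and AKT phosphorylate PFKFB proteins. On chow 3 fell, Prkab2, Prkag3 and Akt1, where 3.81% of all genes were called. With Vhl loss 5 rose and 4 fell, led by Prkab2 (-0.84 ± 0.08) and Prkag2 (1.26 ± 0.15), and in the double knockout 3 rose and 6 fell, against 37.2% and 35.4% of all genes. With diet 0 passed in controls, and 1 rose and 2 fell in knockouts.

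The pattern of each member over the 51 libraries was set beside that of other genes, as Pearson's r of log2 CPM after each gene was centred on its batch means. Of the 12454 genes tested in both batches, predicted, Riken, mitochondrial-genome and accession- or clone-named genes were left out. The libraries share the groups, so these values describe the same group differences. Nearest to Pfkm were Amd1 (r = 0.923), a gene of polyamine synthesis, Vldlr (0.916), a lipoprotein receptor, and Rora (0.913), a nuclear receptor of the clock. Nearest to Pfkl were Egln3 (0.935), a HIF prolyl hydroxylase, Ak4 (0.927) and Ndufa4l2 (0.927), and to Pfkp Ndufa4l2 (0.920), Shmt2 (0.903) and Pfkl itself (0.900).

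Pfkfb3 was most like Chac1 (0.866), a glutathione-degrading enzyme of the stress response, Fbxo32 (0.858), the atrophy ubiquitin ligase atrogin, and Spns2 (0.811). Pfkfb1 was most like Art1 (0.825), Fdft1 (0.810) and Ppm1l (0.787). Weaker values were found for Pfkfb4 (Klf9 0.621, Tmcc1 0.611, Tsc22d3 0.607) and Pfkfb2 (Lsg1 0.593, Supv3l1 0.546, Cyp4f13 0.542). Among the members Pfkm and Pfkfb3 had r = 0.707, Pfkl and Pfkp 0.900, and Pfkfb1 had -0.840 with Pfkl and -0.770 with Pfkp.

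The targeted genes were read from the same 3′ tags, which check nothing where the deleted part lies elsewhere in the gene. Arntl, the gene of BMAL1, was lower in the high-fat Bmal1KO group of batch 1 (-1.02 ± 0.22, adjusted p = 0.00255) and in the double knockout (-0.48 ± 0.13, adjusted p = 0.00213), and did not pass on chow (-0.91 ± 0.28, adjusted p = 0.0821) or in batch 2 Bmal1KO (-0.24 ± 0.13, adjusted p = 0.239). In VhlKO, where Bmal1 was not targeted, Arntl was at -0.27 ± 0.13, which did not pass (adjusted p = 0.0967). The double effect on Arntl did not pass against the Vhl effect (-0.21 ± 0.18, adjusted p = 0.527). Its fall in the double knockout is thus no separate check of Bmal1 loss. Vhl was lower in VhlKO (-0.85 ± 0.30, adjusted p = 0.0217) and double knockouts (-0.78 ± 0.26, adjusted p = 0.018).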

How the data were processed

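Total RNA of gastrocnemius was made into QuantSeq 3′ FWD libraries, per the labels' protocols. The deposited count tables hold raw counts per gene symbol, which per the submitters' processing notes rest on FastQC 0.11.4, STAR 2.6.0 and HTSeq with builds mm10 and GRCm38.p4. The sources used here do not give the strand setting of HTSeq, so reads of a gene and its antisense partner may not be told apart. The deposited normalized tables hold a signal per gene, counts scaled by the authors to a common library size, with edgeR 3.26.8 named in the submitters' processing notes. Their genes were those over 1 CPM in at least 2 libraries, with 12917 in batch 1 and 13873 of 13893 in batch 2, where 27 symbols had turned into dates.

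Counts were fitted with edgeR 4.0.16 (R 4.3.3; filterByExpr, TMM, robust quasi-likelihood F-test), per batch over all its groups (12762 and 13093 genes), and over both batches with a batch term (12565 genes). Animals were grouped by the labels' genotype, diet and batch. Animal numbers are those of the sample titles, and some Bmal1KO columns of batch 2 are headed with other numbers. P-values were adjusted by Benjamini-Hochberg over all genes and called under 0.05, and 95% intervals are ± 1.96 SE. Shares were tested with scipy 1.17.1 by exact permutation over animals. Precision is limited by depth (6945247 to 14717795 counts a library) and by 3 to 8 animals a group, and PCR duplicates were not removed by molecular identifiers as far as the sources used here say.

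Alternatives were DESeq2 1.42.0, limma 3.58.1 on log2 of the deposited normalized signal + 1, RLE scaling, no scaling, no low-count filter, an average log2 CPM of at least 1, only the groups compared, a replicate block and each library left out. Leaving out the 2 chow libraries with B and T cell transcripts was added after seeing the data. Animals with the same number did not deviate together (correlations -0.29 to 0.17), so the numbers were not taken as pairs. All 7 members are named throughout, list genes by up to 4 of the smallest p per comparison, and likeness by the 3 highest r with a prior count of 2. The members and lists were chosen with earlier results of these data known. The edgeR fits were tested on simulated counts, and the permutation test on a made-up case of fully separated groups.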

Additional observations from a re-analysis of the deposited data

Results flagged for a closer look

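In groups of 4 to 8 animals, 63 sets of scaled CPM values of a member were searched for an animal whose gap to the next was a large part of the group's range, and 5 were found, where chance gives about 1 in 20. Pfkfb1 was lowest at 15.6 in batch 2 Bmal1 control 9, and highest at 25.4 in Vhl control 3 and at 26.7 in double-line control 2. Pfkfb3 stood at 137 in Bmal1KO animal 3 on high-fat diet in batch 1, far above the other 4 knockouts. Pfkfb4 stood at 26.3 in Vhl control 2.

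Differences between knockout effects passed their own test 12 times (log2, edgeR). Of all genes, 25.3% passed for Vhl minus Bmal1 and 16.7% for double minus Bmal1. For double minus Vhl 8.56% passed, and for double minus the sum 3.78%. The Vhl effect differed from the Bmal1 effect by 0.50 for Pfkm, 3.07 for Pfkl, 2.29 for Pfkp, 1.60 for Pfkfb3 and -0.68 for Pfkfb1. The double effect differed from the Bmal1 effect by 3.25 for Pfkl, 3.14 for Pfkp, 1.46 for Pfkfb3 and -0.78 for Pfkfb1. It differed from the Vhl effect by 0.85 for Pfkp and -0.32 for Pfkm. For Pfkfb3 it was above the sum of both single effects by 1.52. The causes of these differences were not tested.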

How the results depend on the processing

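Of 2492 log2 changes of members under other settings, 2422 stayed on their side of the threshold, 49 lost and 19 gained the call, and 2 turned. The 2422 include 109 sign changes where neither value passed. The 2 that turned did so without scaling: Pfkm with Vhl loss (0.19) and Pfkfb4 in the double knockout (0.28, from -0.07). With the 3 PFK genes as the total, the share of Pfkm changed by -0.214 percentage points with high-fat diet in controls and by -0.368 with Bmal1 loss in batch 2, against rises in the family total.

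Under the replicate block, whose numbers do not pair animals, members called went to 1 for high-fat Bmal1 loss of batch 1, 0 for diet in controls, 1 for diet in knockouts, 1 for the double minus Vhl effect and 1 over both batches, and 3 against 4 for Vhl loss; it moved no other count of members. Genes called under the block were 598 against 1820 for Bmal1 loss in batch 2, 1318 against 3311 for the Vhl minus Bmal1 effect, 717 against 2191 for double minus Bmal1, 225 against 495 for double minus the sum and 1689 against 2812 over both batches.

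For diet in controls, members called were 3 without scaling, 0 without the low-count filter and 0 without the chow libraries with B and T cell transcripts. All genes called in these settings were 704, 492 and 257, against 302. With only the groups compared, members called were 1 for diet in knockouts (460 against 419 genes) and 1 for the double minus Vhl effect (858 against 1121 genes). For double minus the sum they were 2 with an average log2 CPM filter (533 against 495 genes) and 2 in DESeq2 (658 genes). With 1 library left out, members called ran from 1 to 3 for Bmal1 loss in batch 1, 0 to 1 for diet in controls, 1 to 2 for diet in knockouts, 1 to 2 for double minus Vhl and 1 to 2 for double minus the sum.

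Genes called were 311 against 486 on chow with only the groups compared, 704 without scaling and 492 without a filter against 302 for diet in controls, and 6992 against 4638 for the double knockout without scaling. Without scaling, the share of calls that were higher went from 42.5 to 76.8% for Bmal1 loss in batch 1, 40.3 to 60.7% on chow, 63.9 to 15.2% and 52.3 to 27.5% for diet in controls and knockouts, 49.9 to 69.3% for Bmal1 loss in batch 2, 47.6 to 89.5% for Vhl and 49.0 to 88.8% for double loss, and 47.0 to 77.3% over both batches. It went from 48.1 to 84.6%, 46.0 to 89.4% and 56.6 to 30.8% for Vhl minus Bmal1, double minus Bmal1 and double minus the sum. Pfkfb2 rests on 5 to 37 counts per library. The causes of these shifts were not tested.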
